A study of Mus musculus with 6 samples.

Results

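The genes described here are 9 members of the L1 family and related neural immunoglobulin adhesion molecules: Chl1, L1cam, Nrcam, Nfasc, Ncam1, Ncam2, Cntn1, Cntn2 and Alcam. They were measured in cultured neural stem cells, progenitors that divide under mitogens, from the brains of newborn (P0) C57BL6 mice. The cells were labelled Ecrg4 homo, Ecrg4 hetero or Ecrg4 wt, called homozygous, heterozygous and wild type below, with 2 arrays for each label. All cultures shared a DMEM/F12 medium with bFGF, EGF and heparin and received no treatment. Ecrg4 encodes a small secreted protein. The labels do not say how its allele was altered, or whether the 2 arrays of a label come from separate mice, so p-values measure only the spread between arrays, which may be technical. Every probe whose annotated symbol was a member was taken: 8 members were listed under their current symbol and Nrcam under the older name C130076O07Rik, giving 9 probes, 1 per gene, of 23466 on the array. Chl1 was chosen by its measured values on these arrays, which differed from wild type in opposite directions in heterozygous and homozygous arrays, so they are given as a description without a test. The other 8 members are its named relatives and were read from the fit to all 20434 probes that had a value on all 6 arrays.

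These proteins sit on the cell surface, carry rows of immunoglobulin domains followed in most by fibronectin type III repeats, and hold cells and axons together by binding a copy of themselves or each other. The L1 family (L1cam, Chl1, Nrcam, Nfasc) spans the membrane and ties to the spectrin skeleton through ankyrins. Ncam1 can carry polysialic acid, which loosens adhesion, the contactins are anchored by a lipid, and Alcam binds itself and the lymphocyte receptor Cd6. In the developing brain they guide neurite growth, neuron migration and the building of nodes of Ranvier, and Chl1, the close homolog of L1, is also made by glial progenitors and is cut from the surface by proteases.

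Promoter sequences are shown for Chl1, the member chosen for its differences between genotypes, and for L1cam, its near relative. Each is the stretch from 250 bases before to 50 bases after an annotated transcript start in the RefSeq table of build GRCm38.p6, written 5′ to 3′ on the gene's strand, with CpG dinucleotides in capitals. The Chl1 window lies at chr6:103510626-103510925 on the plus strand, and the L1cam window at chrX:73880741-73881040 on the minus strand, the first of 2 listed starts.
Chl1: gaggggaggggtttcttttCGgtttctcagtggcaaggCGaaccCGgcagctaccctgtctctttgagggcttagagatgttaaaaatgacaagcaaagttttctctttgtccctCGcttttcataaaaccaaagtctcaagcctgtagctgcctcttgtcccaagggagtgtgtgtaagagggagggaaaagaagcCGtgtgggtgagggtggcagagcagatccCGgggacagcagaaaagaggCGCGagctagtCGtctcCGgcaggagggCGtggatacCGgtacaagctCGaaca
L1cam: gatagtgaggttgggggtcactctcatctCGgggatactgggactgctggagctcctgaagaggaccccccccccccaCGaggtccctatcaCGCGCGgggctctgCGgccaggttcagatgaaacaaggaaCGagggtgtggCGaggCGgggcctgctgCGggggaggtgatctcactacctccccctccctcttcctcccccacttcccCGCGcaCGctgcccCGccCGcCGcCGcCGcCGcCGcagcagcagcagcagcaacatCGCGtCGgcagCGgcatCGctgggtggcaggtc
The Chl1 window held 13 CpG dinucleotides and the L1cam window 25, against a median of 7 and an interquartile range of 3 to 20 over 32851 promoter windows of 300 bases. The L1cam count lay above that range. Of the other members, Ncam2 (41) and Nrcam (37) had the most, and Nfasc (7 and 3) and Cntn1 (9, 5 and 4) the fewest; Cntn2 had 13 and Alcam 25, and 8 members had at least 1 window in the table. Letters were searched on both strands. The core that SOX and TCF factors recognise, ACAAAG, occurred 1 time in the Chl1 window and in none of the other 11 member windows, and 18.7% of all windows held it. The GC box GGGCGG, present in 35.7% of all windows, was found in those of L1cam, Nrcam, Ncam2 and Alcam and in 1 of 2 for Nfasc, and not in that of Chl1. The E-box CANNTG, held by 72.3% of windows, was not found in those of Chl1 or Ncam2 or in 2 of 3 for Cntn1. These are matches of letters only.

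Intensities are 1-colour values on a linear scale, scaled so that each array has a median of 30. Between 21740 and 22561 probes had a value on an array, and replicate arrays correlated at r = 0.994 (homozygous), 0.993 (heterozygous) and 0.989 (wild type) over the tested probes. Probes of olfactory receptor genes served as the background level: their 95th percentile lay between 50.5 and 57.6 on the 6 arrays, and a value below it is called dim. Of all probes with a value on an array, 40.1% to 42.4% lay above it, so dim does not mean absent. Ecrg4 read 1.4 and 1.3 in homozygous arrays, 345.5 and 373.9 in heterozygous arrays and 112.9 and 154.9 in wild-type arrays. The homozygous label matched the probe, but heterozygous arrays were above wild-type arrays, so every direction below refers to the arrays as labelled. Of 15 measured stem cell markers, 13 were above background on all 6 arrays, among them the intermediate filament gene Nes (between 752.6 and 1310.9). Of 15 measured neuron markers, 12 were dim on all 6 arrays, including the tubulin gene Tubb3 (34.3 to 52.3) and the microtubule protein gene Dcx (13.1 to 30.8). The other neuron markers were not: Gap43 (1758 to 5139) and Elavl4 (83 to 254.6) were above background on all 6 arrays, and Ina on 4.

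Chl1 read 8.7 and 10.3 in homozygous arrays, 126.0 and 160.8 in heterozygous arrays and 29.8 and 33.1 in wild-type arrays. The readings of the 3 genotypes did not overlap, which restates how Chl1 was chosen. Heterozygous arrays were the highest and the only ones above background: there Chl1 exceeded 99.0% and 99.6% of olfactory receptor probes, against 64.6% and 69.7% in homozygous arrays and 88.7% and 90.7% in wild-type arrays. The measured log2 difference was 2.18 ± 0.19 (SE, n = 2 arrays each) between heterozygous and wild type, -1.73 ± 0.19 between homozygous and wild type, and -3.91 ± 0.19 between homozygous and heterozygous.

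How much of this is a bound depends on the background. With dim arrays set at their own olfactory receptor 95th percentile, Chl1 was at least 2.58-fold higher in heterozygous arrays relative to wild-type arrays, and at least 2.64-fold lower in homozygous arrays than in heterozygous arrays. Homozygous and wild-type arrays were all dim, so no fold is given for that pair: set at the background level they differed by -0.04 on the log2 scale, and with a pseudocount of 16 by -0.90. The opposite differences of Chl1 against wild type therefore rest, on the homozygous side, on readings under the background level. In bulk cultures, fewer cells that make a transcript and less of it per cell cannot be told apart. A log2 difference above 1 in heterozygous and below -1 in homozygous arrays, both against the same wild-type arrays, was measured for 19 of 20434 probes, or 0.0930%, Chl1 and Ecrg4 among them, and the mirror image for 8.

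**Figure D1:**
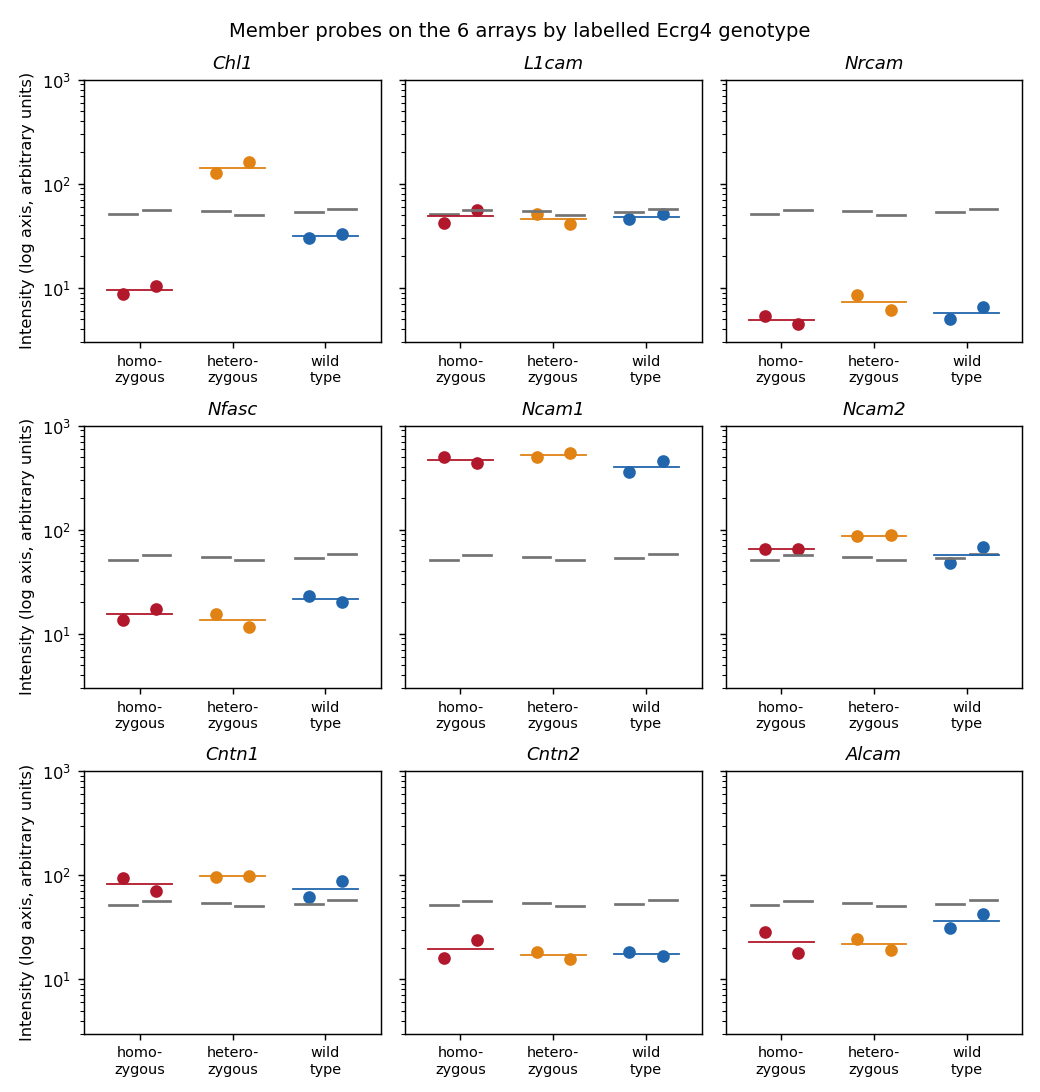
Intensity (log axis, arbitrary units) of the probe of each of the 9 members on the 2 homozygous, 2 heterozygous and 2 wild-type arrays; points are arrays, coloured lines the geometric mean of a genotype and grey dashes each array's olfactory receptor 95th percentile. Chl1 spans 8.7 to 160.8, with its heterozygous arrays alone above the grey dashes, while Ncam1 stays between 353.6 and 546.9.

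Of the other 8 members, none passed the threshold of an adjusted p of 0.05 between homozygous and wild type, where 0.92% of all tested probes did (limma with Benjamini-Hochberg adjustment). At an unadjusted p under 0.05 the count was also 0 of 8, against 19% of all tested probes. None of the 8 passed between heterozygous and wild type (0.749% of all tested probes), and 3 did at an unadjusted p under 0.05 (13.5%). None passed between homozygous and heterozygous (2.69%), with 1 at an unadjusted p under 0.05 (18.2%). The log2 differences of the 8 had a median of 0.08 between homozygous and wild type, 0.15 between heterozygous and wild type and -0.05 between homozygous and heterozygous, against medians of 0.02, -0.01 and 0.04 over all tested probes. Their SEs were 0.18 to 0.28. The 95% intervals of the 8 ran from 0.39-fold to 1.64-fold between homozygous and wild type and from 0.37-fold to 2.15-fold between heterozygous and wild type. The 3 members whose own interval left out 1 between heterozygous and wild type were Ncam2, Nfasc and Alcam, before adjustment over all probes.

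In the rest of the L1 family, L1cam, which binds itself across cells and drives axon growth, read 42.1 and 55.9 in homozygous, 51.7 and 41.0 in heterozygous and 45.5 and 50.9 in wild-type arrays. All 6 values were dim but near the background level, above 92.9% to 94.7% of olfactory receptor probes. The genotypes overlapped in every pair, and the difference between homozygous and wild type was 0.01 ± 0.21 (adjusted p = 0.983). Its 95% interval for that pair was 0.71-fold to 1.43-fold, and the sign is not settled, since median centring gave -0.04. Nrcam, which gathers ion channels at nodes of Ranvier together with Nfasc, read 5.3 and 4.5 in homozygous, 8.6 and 6.1 in heterozygous and 5.0 and 6.5 in wild-type arrays. These are readings that 42.5% to 64.1% of olfactory receptor probes fell below, so no level of Nrcam was measured above background. Its largest difference, between homozygous and heterozygous, was -0.57 ± 0.23 (adjusted p = 0.273).

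Nfasc, the anchor of the axon initial segment and of the glial loops beside nodes, read 13.5 and 17.4 in homozygous, 15.5 and 11.5 in heterozygous and 23.1 and 20.2 in wild-type arrays. Both wild-type arrays were above the other 4, all of them dim. The difference was -0.50 ± 0.22 for homozygous (adjusted p = 0.285) and -0.69 ± 0.22 for heterozygous arrays against wild type (adjusted p = 0.284), and neither passed. L1cam, Nrcam and Nfasc were thus dim on all 6 arrays, and Chl1 on the homozygous and wild-type ones.

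Ncam1, the founding neural cell adhesion molecule and the main carrier of polysialic acid, was 1 of 2 members above background on all 6 arrays. It read 496.5 and 435.4 in homozygous, 498.3 and 546.9 in heterozygous and 353.6 and 454.0 in wild-type arrays. Heterozygous arrays were above all others by a narrow margin, at 1.30-fold of wild type (95% interval 0.96 to 1.77, adjusted p = 0.408). Homozygous arrays overlapped wild type, with a log2 difference of 0.21 ± 0.18 (adjusted p = 0.557).

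Ncam2, the relative of Ncam1 known from sorting olfactory axons, read 64.4 and 65.7 in homozygous, 86.0 and 89.0 in heterozygous and 47.6 and 68.6 in wild-type arrays. It was above background on 5 arrays, all but wild-type array 1, and heterozygous arrays were above all 4 others. The difference between heterozygous and wild type was 0.61 ± 0.20 (1.53-fold, 95% interval 1.09 to 2.15, unadjusted p = 0.0221, adjusted p = 0.297), which did not pass. Over 17 alternative settings its adjusted p ranged from 0.00696 to 0.719, and it was under 0.05 in 1 of them, with dim values set at the background level. Set against the midpoint of homozygous and wild type, heterozygous arrays were 0.52 ± 0.18 higher for Ncam2 (adjusted p = 0.245).

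Among the contactins, Cntn1, a lipid-anchored partner of Nfasc at the junction of axon and glia, was the other member above background on all 6 arrays. It read 94.1 and 71.2 in homozygous, 97.1 and 98.6 in heterozygous and 61.8 and 87.8 in wild-type arrays. Heterozygous arrays were again the highest, 1.33-fold of wild type (95% interval 0.90 to 1.95, adjusted p = 0.457), and homozygous arrays lay across the wild-type values. Cntn2, also called TAG-1, which guides commissural axons, read 16.1 and 24.1 in homozygous, 18.5 and 15.6 in heterozygous and 18.3 and 16.9 in wild-type arrays. It was dim throughout and overlapped in all 3 pairs.

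Alcam, which joins neighbouring cells and binds Cd6 on lymphocytes, read 28.7 and 18.0 in homozygous, 24.4 and 19.3 in heterozygous and 31.1 and 42.6 in wild-type arrays. As with Nfasc, both wild-type arrays were above the other 4 and all were dim. The difference from wild type was -0.68 ± 0.28 in homozygous arrays (adjusted p = 0.267) and -0.75 ± 0.28 in heterozygous arrays (adjusted p = 0.340). Homozygous and heterozygous arrays overlapped for Alcam (0.07 ± 0.28), and quantile scaling turned the sign of that difference (-0.01).

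**Figure D2:**
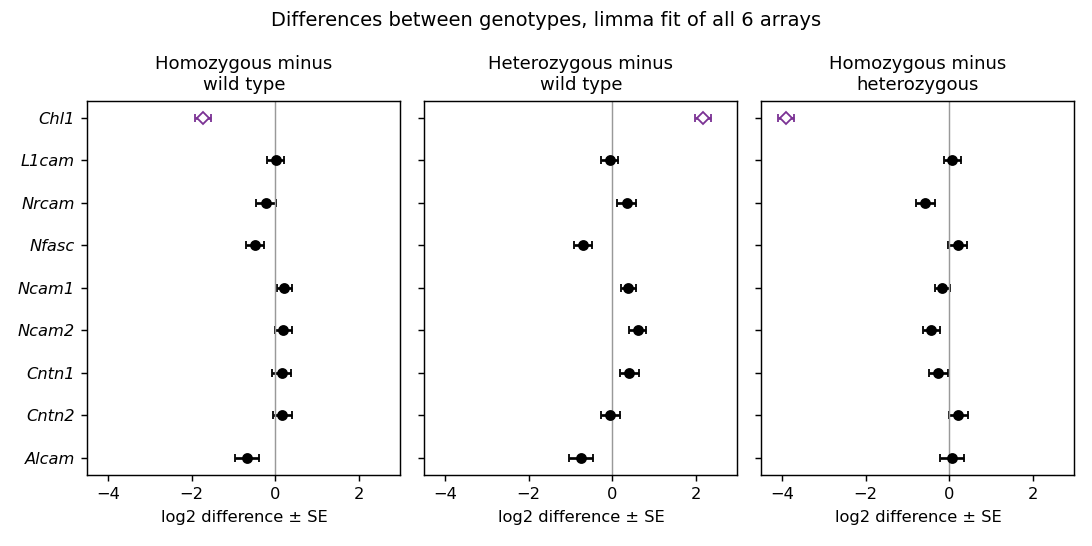
Log2 differences (x axis) of the 9 members between homozygous and wild type, heterozygous and wild type, and homozygous and heterozygous arrays, with bars of 1 SE of the limma fit (n = 2 arrays each); the open diamond is Chl1, shown as a description. The other 8 members lie between -0.75 and 0.61, and Chl1 between -3.91 and 2.18.

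Counted by arrays that did not overlap, homozygous arrays were below wild type for 2 of the 8 members, Nfasc and Alcam, and above it for 0, where 24.8% and 25.7% of all tested probes did so. Heterozygous arrays were above wild type for 3 members, Ncam1, Ncam2 and Cntn1, and below it for 2, Nfasc and Alcam, against 21% and 24.5% of all tested probes. For Ncam1, Ncam2 and Cntn1, wild-type array 1 was the lower wild-type array. Without it their log2 differences from wild type fell from 0.38, 0.61 and 0.41 to 0.20, 0.35 and 0.16. Homozygous arrays were below heterozygous ones for 4 members, Nrcam, Ncam1, Ncam2 and Cntn1, and above them for 0, against 25.9% and 28.7%. For Ncam1, Ncam2 and Cntn1 the heterozygous arrays were above all 4 others, as for 11.1% of all tested probes. The test of heterozygous arrays against the midpoint of homozygous and wild type passed for none of the 8, with a lowest adjusted p of 0.245 (Ncam2), against 1.53% of all tested probes, and 1 of 8 had an unadjusted p under 0.05 (15.3% of all). The 3 members with this order were the only ones of the 9, besides Chl1, with any array above background. None of the 8 had heterozygous and homozygous arrays on opposite sides of wild type without overlap, which 6.12% of all tested probes had.

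**Figure D3:**
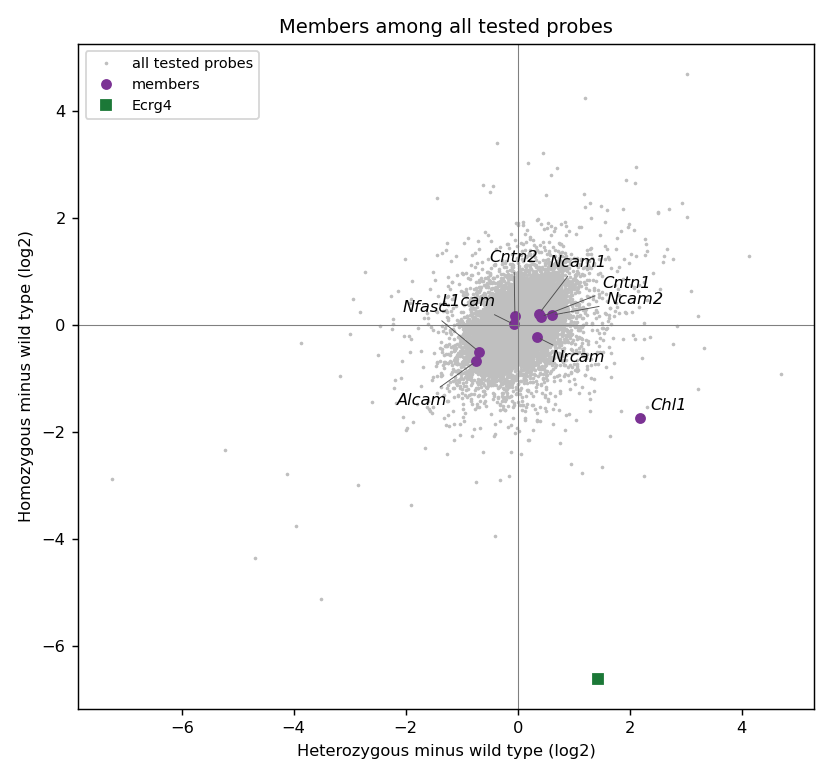
Log2 difference of heterozygous minus wild type (x axis) against homozygous minus wild type (y axis) for all 20434 tested probes (grey), the 9 members (purple) and Ecrg4 (green square); both axes use the same wild-type arrays. The members other than Chl1 lie between -0.75 and 0.61 on both axes; Chl1, chosen for its place at 2.18 and -1.73, and Ecrg4 at 1.44 and -6.62 are plotted at measured differences whose homozygous readings are dim.

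The genes whose pattern over the 6 arrays was most like that of Chl1 were taken by Pearson correlation of log2 intensity, among 1000 named probes that varied by at least 1 log2 unit and were above background on at least 1 array. With 6 arrays in 3 genotypes, r mainly reflects the order and spacing of the genotypes: 107 of the 1000 probes had r over 0.9 with Chl1 and 72 had r under -0.9. The 10 highest were Snapc1, a subunit of the complex that starts small nuclear RNA synthesis (r = 0.998), Iqsec1, an activator of the small GTPase Arf6 (0.990), the G protein gamma subunit Gng2 (0.990), the mitotic phosphatase Cdc25b (0.987), the phosphatidate phosphatase Lpin1 (0.986), the lipid raft protein Flot2 (0.986), the mitochondrial membrane protein Tspo (0.984), the adaptor of Src kinases Skap2 (0.982), the imprinted growth regulator Ndn (0.981) and Rp9 (0.981). All 10 had the order heterozygous, wild type, homozygous from high to low. The 10 were ranked on the same arrays that chose Chl1, and 1 bright array was enough to enter a probe, so some, such as Flot2 and Tspo, entered through heterozygous arrays alone. With dim values set at background, a setting chosen after the data were seen, r stayed over 0.9 for 5 of the 10 and the lowest was -0.13.

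Their levels on the 6 arrays differed in how many were above background. Gng2 read 8.7 and 8.3 in homozygous, 248.7 and 335.7 in heterozygous and 59.6 and 61.4 in wild-type arrays. It was at least 5.37-fold lower in homozygous arrays, against heterozygous arrays, with dim values at background. Skap2 was above background on all 6 arrays, at 311.5 and 257.5 in homozygous, 1467 and 1461 in heterozygous and 468.0 and 508.6 in wild-type arrays. Snapc1, with the highest r and all 6 arrays above background, read 57.8 and 64.3 in homozygous, 141.4 and 160.0 in heterozygous and 92.8 and 90.5 in wild-type arrays. Among the members, r with Chl1 was 0.74 for Nrcam, 0.64 for Ncam2, 0.45 for Cntn1 and 0.40 for Ncam1, and below 0 for L1cam, Nfasc, Cntn2 and Alcam.

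The 5 genes with the lowest r had the mirror order, homozygous highest and heterozygous lowest. They were the interferon-inducible GTPase Gbp4 (r = -0.996), the neuronal membrane protein Plppr1 (-0.996), the neuronal intermediate filament Ina (-0.996), the cyclin Ccnd2 (-0.994) and the interleukin receptor adaptor Traf3ip2 (-0.990). Ccnd2, which drives entry into the cell cycle, read 9966 and 9232 in homozygous, 3731 and 3709 in heterozygous and 5818 and 6042 in wild-type arrays. Ina read 137.1 and 130.3 in homozygous, 33.9 and 34.1 in heterozygous and 70.2 and 65.5 in wild-type arrays. Ina is also 1 of the 15 measured neuron markers. Between heterozygous and wild type the growth cone gene Gap43 rose (1.32, adjusted p = 0.0464), Ina fell (adjusted p = 0.0469), and the other 13 did not pass. Between homozygous and wild type 3 of the 15 passed, all higher: Gap43 (1.44, adjusted p = 0.0354), Elavl4 (1.40, 0.0403) and Ina (0.98, 0.0469). Between homozygous and heterozygous 2 passed, both higher: Elavl4 (1.27, adjusted p = 0.0305) and Ina (1.97, 0.00407). Of 14545 named genes, 0.839%, 0.935% and 2.89% passed in these 3 comparisons.

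Markers of other cell types were read beside Chl1, as sums over a list and gene by gene. Heterozygous arrays, where Chl1 was highest, were above all 4 others for 5 of 10 measured astrocyte markers and below all 4 for 0. Of all tested probes, 11.1% were above and 10.7% below. The 5 were the water channel gene Aqp4, Aldh1l1, S100b, the gap junction gene Gja1 and Atp1b2. Of these, S100b and Gja1 were above background on all 6 arrays, Aqp4 and Atp1b2 on 1, and Aldh1l1 on none. By the same count, 2 of 15 stem cell markers were above and 3 below. For 15 neuron markers it was 1 and 3, and for 11 oligodendrocyte lineage markers 1 and 2. For 5 microglia markers it was 1 and 1, and for 9 endothelial and mesenchymal markers 0 and 0. Of the stem cell markers only Notch1 passed, as lower in homozygous than in heterozygous arrays (adjusted p = 0.0450). The oligodendrocyte lineage marker Ugt8a, dim on all 6 arrays, passed as lower in heterozygous than in wild-type arrays (0.0464). It also passed as higher in homozygous than in heterozygous arrays (0.0205). The median log2 difference of the 10 astrocyte markers was -0.06 between homozygous and wild type, 0.80 between heterozygous and wild type and -0.48 between homozygous and heterozygous. Aldoc, the brightest of the 10, was lower in heterozygous than in wild-type arrays (-0.62 ± 0.15, adjusted p = 0.183), as were Glul (-0.57 ± 0.31) and Gfap (-0.05 ± 0.32). Aqp4 read 14.3 and 8.0 in homozygous, 66.8 and 45.5 in heterozygous and 10.2 and 16.2 in wild-type arrays, above background on 1 array, and passed as lower between homozygous and heterozygous (adjusted p = 0.0333). The matrix gene Sparcl1 was the other astrocyte marker to pass, as higher in homozygous arrays against both heterozygous (adjusted p = 0.00869) and wild-type arrays (0.00583). None of the 10 passed between heterozygous and wild type, where 0.839% of named genes did. The filament gene Gfap was dim on all 6 arrays, 3.6 to 7.3. The astrocyte sum, most of it from Aldoc, was 10054 and 9133 in homozygous, 9279 and 9357 in heterozygous and 10152 and 11341 in wild-type arrays.

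The summed level of the neuron markers, most of it from Gap43, was 5474 and 5394 in homozygous, 4141 and 5473 in heterozygous and 2161 and 2149 in wild-type arrays. The sum of 11 measured oligodendrocyte lineage markers, 3 above background on all 6 arrays and with Olig1 the brightest, was 14459 and 12138 in homozygous, 12152 and 13796 in heterozygous and 10369 and 11099 in wild-type arrays. None of 5 measured microglia markers was above background on all 6 arrays. Of these, P2ry12 and Cd14 passed as higher in homozygous than in wild-type arrays (adjusted p = 0.0221 and 0.0445). In heterozygous arrays against wild type, Cd14 passed as higher (0.0220) and Cx3cr1 as lower (0.0374). P2ry12 also passed as higher between homozygous and heterozygous (0.0218). P2ry12, Cd14 and Cx3cr1 were dim on all 6 arrays. Of 9 endothelial and mesenchymal markers only the smooth muscle actin gene Acta2 was above background, at 88.0 and 118.5 in homozygous, 277.5 and 284.6 in heterozygous and 1230 and 894.8 in wild-type arrays, and the other 8 summed to between 130.2 and 193.9 on every array. Acta2 passed as lower in homozygous than in wild-type (adjusted p = 0.00583) and heterozygous arrays (0.0325), and in heterozygous than in wild-type arrays (0.0264). Of named genes, 0.935% passed between homozygous and wild type, 0.839% between heterozygous and wild type and 2.89% between homozygous and heterozygous. The part of these markers in the Chl1 readings was not tested.

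**Figure D4:**
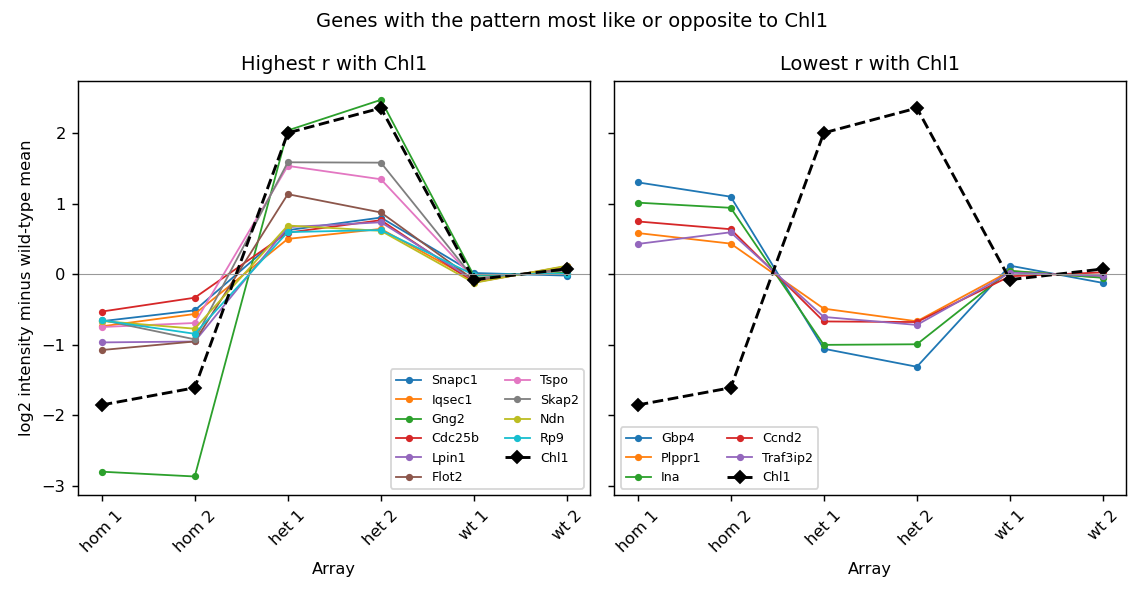
Log2 intensity relative to the wild-type mean (y axis) on the 6 arrays (x axis; hom homozygous, het heterozygous, wt wild type) for the 10 genes with the highest (left) and the 5 with the lowest (right) r with Chl1, which is the dashed black line. Heterozygous arrays are highest in the left panel and lowest for the 5 genes of the right panel; homozygous readings of Chl1, Gng2, Lpin1, Flot2 and Tspo are dim.

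Partners of the family were followed as 4 lists, each read on 1 probe per gene and drawn up with earlier results of these arrays known, so their counts are not independent evidence. Of 35 other immunoglobulin adhesion genes, 32 were tested, 13 above background on all 6 arrays and 15 dim on all 6. None passed in either comparison with wild type, where 0.935% (homozygous) and 0.839% (heterozygous) of 14545 named genes did. Between homozygous and heterozygous 1 passed, as lower, against 2.89% of named genes. That gene was Igsf3, which read 20.7 and 27.4 in homozygous, 69.0 and 66.9 in heterozygous and 48.1 and 69.0 in wild-type arrays. Igsf3 fell in homozygous relative to heterozygous arrays by 1.51 ± 0.23 on the log2 scale (adjusted p = 0.0320), at least 1.26-fold with dim values at background. The call ended without either heterozygous array (adjusted p = 0.132 and 0.150) or either homozygous array (0.199 and 0.141), with dim values at background (0.167) or with blank cells filled (0.0533). The bright genes of this list included Negr1 and Ntm, lipid-anchored IgLON proteins of growing neurites, which differed from wild type by 0.14 each in homozygous arrays and by 0.29 and -0.14 in heterozygous arrays. The median difference of the list was 0.08 between homozygous and wild type and 0.01 between heterozygous and wild type, against 0.02 and 0.01 over all named genes.

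Of 27 extracellular partners and co-receptors, 22 were tested and 8 were above background on all 6 arrays. None passed against wild type, where 0.935% (homozygous) and 0.839% (heterozygous) of named genes did. Cd24a, a small heavily glycosylated surface protein that binds L1cam, passed between homozygous and heterozygous, where 2.89% of named genes did. It read 814.6 and 871.9 in homozygous, 319.3 and 291.9 in heterozygous and 515.9 and 439.6 in wild-type arrays, with no overlap between any pair. Cd24a rose in homozygous relative to heterozygous arrays by 1.46 ± 0.16 (adjusted p = 0.0127), with an order over the genotypes opposite to that of Chl1. The call ended without either heterozygous array (adjusted p = 0.0702 and 0.0949) or either homozygous array (0.105 and 0.133). The matrix ligand Tnc, which binds Cntn1, did not pass and read 1867 and 2157 in homozygous, 1437 and 1363 in heterozygous and 1469 and 1442 in wild-type arrays.

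None of the 18 tested of 24 cytoplasmic partners passed in any of the 3 comparisons, and 11 were above background on all 6 arrays. Of named genes, 0.935% passed between homozygous and wild type, 0.839% between heterozygous and wild type and 2.89% between homozygous and heterozygous. Of the ankyrins on this list, only Ank1 was tested, and it was dim on all 6 arrays (5.1 to 8.4). Ank2 and Ank3 had no tested probe. The spectrin gene Sptan1 read 1326 and 1247 in homozygous, 1027 and 1128 in heterozygous and 1152 and 1274 in wild-type arrays. Fyn, the Src-family kinase that acts downstream of Ncam1 and the contactins, gave 0.43 between homozygous and wild type and -0.04 between heterozygous and wild type. The list's median difference was 0.12 and -0.03 in those comparisons.

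Proteases that cut these proteins, their inhibitors and the polysialyltransferases formed the last list, with 18 of 21 tested, 7 of them above background on all 6 arrays. Between homozygous and wild type 1 passed, as higher. Between heterozygous and wild type 2 passed, both higher, and between homozygous and heterozygous 1 passed, as lower, where 0.935%, 0.839% and 2.89% of named genes passed. The sheddase Adam10, which releases L1cam and Ncam1 from the surface, was not among them and read 988.8 and 1079 in homozygous, 934.7 and 1234 in heterozygous and 730.8 and 895.3 in wild-type arrays.

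Timp1, a secreted inhibitor of metalloproteinases, read 23.8 and 31.7 in homozygous, 458.1 and 300.2 in heterozygous and 29.8 and 46.3 in wild-type arrays. Like Chl1 it was above background in heterozygous arrays alone. The measured log2 difference between heterozygous and wild type was 3.32 ± 0.31 (adjusted p = 0.0138), at least 6.71-fold with dim values at background. Between homozygous and heterozygous it was -3.755 ± 0.31 (adjusted p = 0.00583), at least 6.89-fold lower with dim values at background. The first call ended without wild-type array 1 (adjusted p = 0.0767), without heterozygous array 1 (0.0647) or 2 (0.0528), or without either homozygous array (0.0506), and with only the 4 arrays compared (0.0506). The second ended without homozygous array 1 (0.0669) or 2 (0.0595).

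Mmp14, a membrane-anchored metalloproteinase, read 45.9 and 36.2 in homozygous, 62.2 and 78.5 in heterozygous and 13.5 and 15.1 in wild-type arrays. Mmp14 was measured 2.29 ± 0.20 higher on the log2 scale in heterozygous than in wild-type arrays (adjusted p = 0.0105). With dim values at background it was at least 1.26-fold higher and did not pass (adjusted p = 0.200). The call also ended when heterozygous array 2 or wild-type array 1 was left out. Homozygous and wild-type arrays were both dim for Mmp14, so no fold is given, and that call (adjusted p = 0.0364) ended when any 1 of the 6 arrays was left out, with adjusted p between 0.0610 and 0.242. It also ended with only the 4 arrays compared (0.0652), with blank cells filled (0.0664), with array weights (0.0612), and with dim values at background, where all 4 arrays sit at the floor (0.838).

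**Figure D5:**
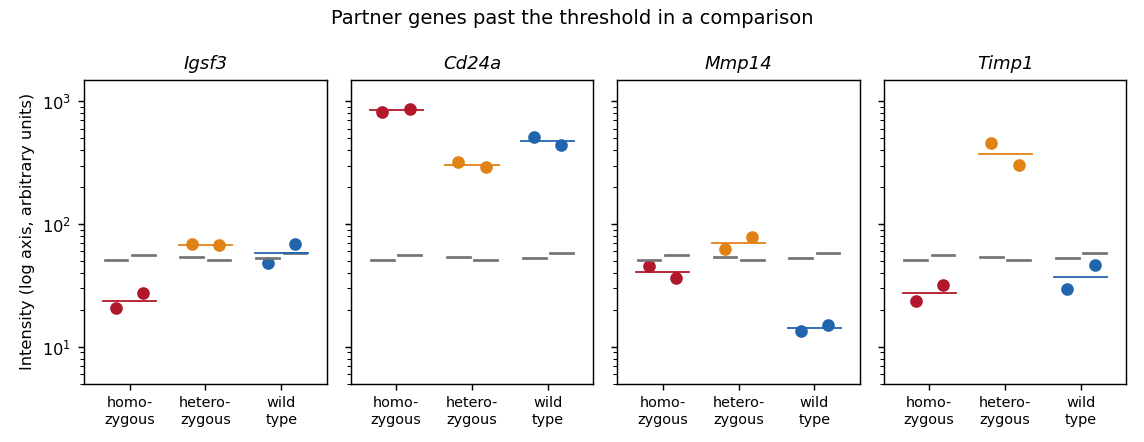
Intensity (log axis, arbitrary units) of the 4 partner genes that passed the threshold in a comparison, by array and genotype; coloured lines are geometric means and grey dashes each array's olfactory receptor 95th percentile. Timp1 is above the dashes in heterozygous arrays alone (458.1 and 300.2), and Cd24a is highest in homozygous arrays (814.6 and 871.9).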

How the data were processed

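Labelled RNA was hybridised to 6 mouse arrays. Per the labels' protocols, amino allyl aRNA was made and a dye coupled by the array maker's protocol. The labels also name biotin as the label, so which label was used is not settled. The authors deposited 1 linear intensity per probe and array, and each column's median of 30 was taken as scaling by the authors. The sources used here do not give the background correction or the reason for blank cells. Symbols came from the platform annotation and were updated through RefSeq synonyms (GRCm38.p6): 12620 of the probes with a symbol were current and 3943 were replaced.

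Values were log2-transformed with no pseudocount, and probes without blank cells were fitted with limma 3.58.1 in R 4.3.3, with 1 coefficient per genotype, 3 residual and 3.27 prior degrees of freedom. Tests were two-sided and adjusted by Benjamini-Hochberg over 20434 probes at 0.05. The number of arrays limits the precision. The script was tested on simulated data. The members, lists and partner genes were chosen with earlier results of these data known. Named genes were all members, Ecrg4, the 10 most and 5 least Chl1-like genes, and list genes past the threshold. Nes, Tubb3, Dcx, the other named markers, Negr1, Ntm, Tnc, Ank1, Sptan1, Fyn and Adam10 were added after their values were seen. Alternatives changed the background floor, pseudocount, scaling, blank cells, dim probes, variance model, array weights, arrays in the fit, a replicate block and each array.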

Additional observations from a re-analysis of the deposited data

How the results depend on the processing

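The count of passing members other than Chl1 was 0 in 64 of 67 recomputations. It was 1, Ncam2, in the exceptions, which set dim values at the background level: heterozygous against wild type, homozygous against heterozygous (-0.43, adjusted p = 0.0393), and heterozygous against the midpoint of the others (0.48, adjusted p = 0.00342). That floor gives every dim probe on an array the same value, the background level of that array. The measured Chl1 difference between homozygous and wild type ran from -1.85 to -0.038, the second being the difference between the arrays' floor values, since all 4 arrays were dim. Of the 10 genes most like Chl1, 5 had r over 0.9 with the floor and 10 under each other setting tried, all chosen after the data were seen: a pseudocount, median centring and leaving out each array.

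Counts of all passing probes moved widely. Between homozygous and wild type 188 became 2090 with the floor, 1143 with the pseudocount, 314 with median centring, 328 with quantile scaling, 313 with cyclic loess, 88 with blank cells filled, 849 without dim probes, 1094 with an intensity trend and robust prior, 89 with array weights, 59 with only the arrays compared, and 1 to 224 leaving out 1 array. Between heterozygous and wild type 153 became 1221 with the floor, 306 with the pseudocount, 400 with the trend, 100 with array weights, 40 with only the arrays compared, and 18 to 340 leaving out 1 array. Between homozygous and heterozygous 549 became 1889, 1376 and 1357 with floor, pseudocount and trend, 320 with blanks filled, 974 without dim probes, 1261 with array weights, and 6 to 680 leaving out 1 array. For the midpoint 313 became 1469, 707 and 820 with floor, pseudocount and trend, 470 without dim probes, and 18 to 530 leaving out 1 array. Some settings used smaller sets of arrays or probes, and why the counts moved was not tested for any setting.

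Same-numbered arrays did not deviate together (r = 0.01, 0.02 and -0.08), so the numbers were not taken as pairs. With a replicate block, 47, 51, 244 and 142 probes passed in those 4 comparisons, and 0 of the 8 members. The block also ended the calls of Timp1 between heterozygous and wild type (adjusted p = 0.0508) and of Mmp14 between homozygous and wild type (0.0987).

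Of 516 recomputed differences of the 8 members, 29 changed sign, none of them past the threshold. With the floor, L1cam and Cntn2 gave -0.038 between homozygous and wild type, as did Mmp14, and Nrcam gave -0.079 between heterozygous and wild type, 0.041 between homozygous and heterozygous and -0.060 for the midpoint. L1cam gave -0.044 with median centring, -0.043 with cyclic loess and -0.030 with quantile scaling between homozygous and wild type, and Alcam -0.0095 and -0.023 with quantile and cyclic loess scaling between homozygous and heterozygous. Leaving out 1 array, the homozygous to wild-type difference ran from -0.19 to 0.22 for L1cam, -0.077 to 0.45 for Ncam2, -0.10 to 0.41 for Cntn1 and -0.13 to 0.45 for Cntn2. The heterozygous to wild-type difference ran from -0.23 to 0.10 for L1cam and -0.17 to 0.073 for Cntn2. The homozygous to heterozygous difference ran from -0.13 to 0.28 for L1cam, -0.016 to 0.41 for Nfasc, -0.077 to 0.50 for Cntn2 and -0.27 to 0.40 for Alcam. For the midpoint it ran from -0.24 to 0.10 for L1cam and -0.28 to 0.014 for Cntn2. Of the 9 members, 5 were dim on all 6 arrays, and for them signal over background limits any statement.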
